A study of Penaeus monodon with 38 samples.

Results

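The transcripts described here are anonymous sequences of the black tiger shrimp Penaeus monodon whose signal in wild-caught females was higher in the eyestalk than in the other tissues measured. They were drawn from the array's SMART clones and assembled contigs, which together make up 1225 of its 2240 probes and 530 of its 921 target sequences. A probe was kept when its mean level over the 12 wild eyestalk arrays was at least 1 log2 unit above both its mean over 12 wild ovary arrays and its mean over 6 wild cephalothorax arrays. This rule kept 143 probes, the members, from 92 targets. The members were thus selected on wild eyestalk, ovary and cephalothorax intensities. The files give these targets no gene name, and no genome was used, so positions below are base positions within each target and no function or chromosome is stated.

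The study compared adult wild-caught females with captive-reared females around removal of a single eyestalk, a hatchery practice that brings on ovarian maturation. Total RNA was amplified, labelled with Cy5 and hybridised alone on each of 38 arrays. Wild eyestalk and wild ovary each had 2 arrays at every one of 6 stages. Previtellogenic stages were the unablated animals (preablation) and animals taken 2 h and 24 h after ablation. The later stages were vitellogenic, round cortical rod and elongated cortical rod, and these 3 are grouped as the vitellogenic phase, which gives 6 wild eyestalk arrays per phase. Wild cephalothorax had 1 array per stage. Captive-reared animals had 1 array per tissue at each of 4 stages (preablation, previtellogenic after ablation, vitellogenic, elongated cortical rod). A captive phase therefore rests on 2 arrays in each tissue. For wild ovary, pools of 4 and of 5 animals are described, and for captive animals pools of 3. Whether wild eyestalk and cephalothorax were pooled in the same way is not stated, so the spread given here is between arrays and need not be that between single animals. The labels describe the later wild stages as sampled in the days after ablation, with no time for each array, so ovarian stage and time since ablation cannot be told apart.

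In crustaceans the eyestalk carries both the compound eye and a neurosecretory centre, the X-organ and sinus gland. This centre releases peptides of the crustacean hyperglycaemic hormone family, some of which restrain the ovary and the moult, and pigment-dispersing hormone. Removing an eyestalk lowers the supply of these peptides, which is why ablation is used to induce spawning. In whole-tissue RNA, fewer cells of a type and less RNA per cell cannot be told apart.

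The 10 member probes with the largest margin are shown first, since they stand farthest above the other tissues. The margin is the eyestalk mean minus the higher of the ovary and cephalothorax means. The numbers in a probe's name are its first and last base in the target. Capitals mark the bases that overlapping probes of a target share.
Contig[0307]_182_216: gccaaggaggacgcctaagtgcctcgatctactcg
E-B6-5-SMART_68_102: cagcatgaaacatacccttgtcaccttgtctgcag
Contig[0280]_81_115: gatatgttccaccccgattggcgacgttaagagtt
plateB-H1-5SMART-primer_307_341: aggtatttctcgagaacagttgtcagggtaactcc
Contig[0318]_129_162: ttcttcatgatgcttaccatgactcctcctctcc
Contig[0251]_849_883: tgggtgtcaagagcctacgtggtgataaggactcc
Plate-B-F1-5-SMART_17_54: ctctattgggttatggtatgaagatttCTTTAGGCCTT
plateB-H1-5SMART-primer_357_391: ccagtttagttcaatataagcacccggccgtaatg
E-C11-5-SMART_91_124: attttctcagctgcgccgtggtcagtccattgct
Plate-B-F1-5-SMART_44_81: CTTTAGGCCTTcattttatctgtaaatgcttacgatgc

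Contig[0307]_182_216 had the largest margin, at 7.08 log2 units. Its eyestalk level was 15.25 ± 0.53 (SD, n = 12), against 8.17 ± 0.26 in ovary (n = 12) and 7.96 ± 0.09 in cephalothorax (n = 6). These levels, and those that describe the choice of members, are log2 of the scanner's mean intensity plus 50, quantile-normalised over the 30 wild arrays. E-B6-5-SMART_68_102 followed with 14.77 ± 0.31 in eyestalk, 8.05 ± 0.19 in ovary and 7.92 ± 0.09 in cephalothorax. The third, Contig[0280]_81_115, read 15.32 ± 0.25 in eyestalk and 8.63 ± 0.17 in cephalothorax. Their eyestalk readings lie near the top of the scale, so their margins may be compressed: 8 members had at least 1 spot at the scanner's ceiling of 65535. The 2 overlapping probes of Plate-B-F1-5-SMART both stood in this group, with margins of 5.96 and 5.55, as did the 2 separate probes of plateB-H1-5SMART-primer, with 6.58 and 5.72. All these differences were used to choose the probes and carry no test. Each wild tissue was hybridised on slides of its own, so slide and tissue cannot be told apart in the margins.

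Margins ran from 1.00 to 7.08 with a median of 1.53. Of the 143 members, 44 had a margin of 2 or more, 26 (from 15 targets) of 3 or more and 20 of 4 or more, while 70 lay under 1.5. The members just inside the threshold were plateC-C10-5SMART-primer_245_279 (1.005), C-E12-5-SMART_591_625 (1.006) and B-G1-5-SMART_10_43 (1.01). The nearest probes left out were plateC-A9-5SMART-primer_568_602 (0.996), Contig[0266]_69_102 (0.996) and A-E6-5-SMART_61_97 (0.995). The threshold therefore separates probes with nearly equal margins.

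**Figure D1:**
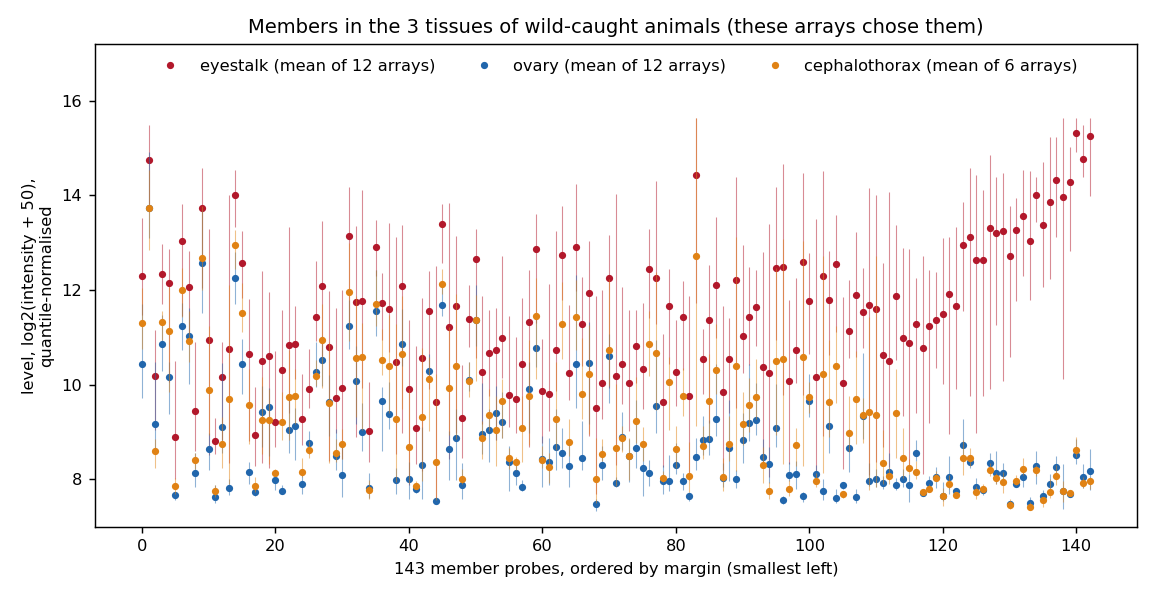
Mean level of each of the 143 member probes (horizontal axis, ordered by margin) in wild eyestalk (red, 12 arrays), ovary (blue, 12 arrays) and cephalothorax (orange, 6 arrays), as log2(intensity + 50) after quantile normalisation; vertical lines span the lowest to the highest array. At the right end the ovary and cephalothorax points lie together near the bottom of the scale, and at the left end all 3 tissues are spread over most of it.

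Signal outside the eyestalk enters the margin, so the counts in this paragraph describe the choice. To judge a dim signal, a non-specific level was set on each array at the 90th percentile of 24 probes for vertebrate sequences. On the wild arrays 96 members exceeded it on all 12 eyestalk arrays, 42 exceeded it on 0 ovary arrays and 28 on 0 cephalothorax arrays. Only 19 members exceeded it on 0 arrays of both other tissues, and 13 of these had a margin of 3 or more. All 26 members with a margin of 3 or more had ovary and cephalothorax means within 0.5 of each other, as did 91 of all 143. There were 30 members with a cephalothorax mean at least 1 above the ovary mean and 0 with the reverse. C-E12-5-SMART_591_625 shows the low-margin kind: it read 14.75 in eyestalk, 13.74 in ovary and 13.74 in cephalothorax, bright in all 3 tissues.

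The eyestalk threshold was passed by 11.7% of SMART and contig probes and by 7.00% of the array's other 1015 probes (71 probes). Among clone series, named by the start of the clone's name, the E series held the largest share of members, 20 of 89 probes (22.5%), and 8 of those had a margin of 3 or more. The plateB series had 18.1% and contigs had 34 of 209 probes (16.3%), whereas the A series had 2.30% and the plateA series 2.97%. The meaning of the series letters is not stated by the labels. The median GC content was 48.6% for members and 45.7% for the other candidates.

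Probes of a target did not always go together. The 92 targets carry 227 probes, of which 84 missed the threshold, 62 of these with a margin above 0 and 22 with one below 0. All probes were members for 33 targets, 4 of which have a single probe. The 11 targets with 3 member probes included plateB-H2-5SMART-primer, with margins from 2.15 to 5.12, plateB-B4-5SMART-primer, with 2.64 to 4.79, and Plate-A-E12-5-SMART, with 1.98 to 4.22. Probes of a target share that target, so the count of 92 is the closer count of transcripts. Only 3 members shared a run of 14 or more bases with a probe of another target. D-D12-5-SMART_439_473 shared 24 bases with a probe of an ovarian transcript. The other pair is shown with the shared 14 bases in capitals.
E-A8-5-SMART_64_100: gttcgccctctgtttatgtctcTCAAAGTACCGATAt
E-B4-5-SMART_40_74: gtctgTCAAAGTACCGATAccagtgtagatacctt

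Other arrays gave a measurement that the choice did not use. The 4 captive eyestalk arrays were compared with the 4 captive ovary arrays, on normexp-corrected, quantile-normalised log2 intensity, which is the scale of all tests below. Of the 143 members, 106 (74.1%) were higher in captive eyestalk and 0 were lower at an adjusted p under 0.05 (limma, Benjamini-Hochberg over all 2240 probes). In the background, 36.8% of all probes passed, 21.7% higher and 15% lower. The median difference was 1.93 log2 units over members and 0.03 over all probes, and 138 members lay above 0. For 96 members every captive eyestalk array exceeded every captive ovary array, as for 21.9% of all probes. The test was passed by 25 of the 26 members with a margin of 3 or more and by 41 of the 70 with a margin under 1.5. Each captive tissue was hybridised on a slide of its own, so slide and tissue cannot be told apart here.

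E-B6-5-SMART_68_102 had the smallest p in this comparison. It read 14.40, 14.32, 14.85 and 14.66 on the 4 captive eyestalk arrays (in stage order) and 6.87, 6.53, 6.59 and 6.82 on the ovary arrays. No ovary array rose above the non-specific level, and the groups were far apart. The fitted difference was 7.85 ± 0.16 (SE, adjusted p = 4.12e-08), and the signal was at least 154-fold higher in eyestalk when set against that level. Contig[0318]_129_162 read 14.85 to 15.19 in eyestalk and 6.06 to 6.83 in ovary, a difference of 8.72 ± 0.19 and at least 225-fold. Contig[0307]_182_216 differed by 7.27 ± 0.27 and at least 101-fold. Each of these 3 probes was among the 10 largest margins in wild animals.

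Some members went the other way or were lost in captive animals. plateC-A1-5SMART-primer_45_79 read 7.65 to 8.89 in captive eyestalk and 8.50 to 10.27 in captive ovary, overlapping ranges with a difference of -0.94 ± 0.41 (adjusted p = 0.104). The probe at bases 138 to 171 of the target was also below 0, at -0.58 ± 0.31 (adjusted p = 0.182). The other members below 0 were Contig[0353]_108_144, F-D7-5-SMART_641_675 and E-F3-5-SMART_25_59, with differences of -0.26, -0.27 and -0.03. plateB-B4-5SMART-primer_585_619 was the member with a margin of 3 or more that missed the test. It read 7.13, 8.19 and 6.67 on the first 3 captive eyestalk arrays and 12.25 on the elongated rod array, against 6.37 to 6.85 in ovary.

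**Figure D2:**
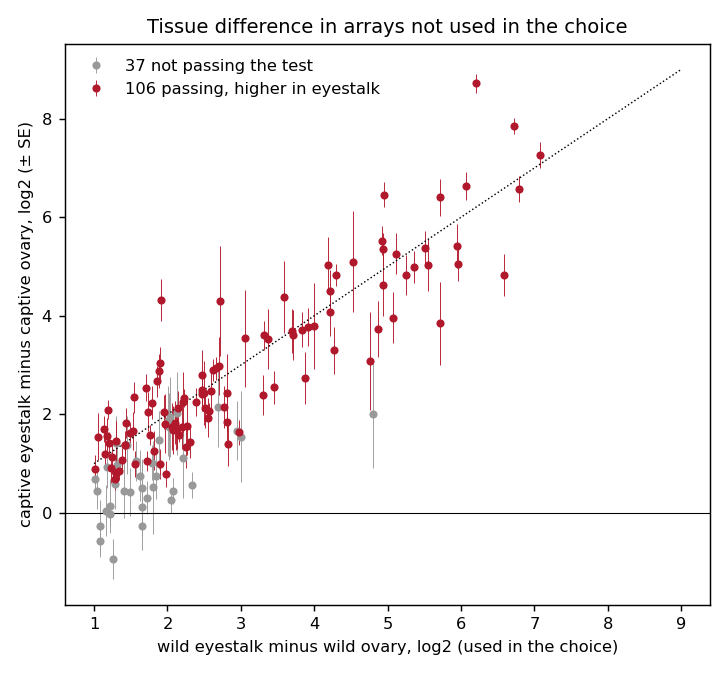
Captive eyestalk minus captive ovary (vertical, log2, ± SE, 4 arrays each) against wild eyestalk minus wild ovary (horizontal, log2, 12 arrays each) for the 143 members; the dotted line marks equal differences. The 106 red points passed the test in captive animals; the 5 points below 0 all lie at a wild difference under 2.

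Within the eyestalk the members were more variable than the array as a whole. The median SD over the 12 wild eyestalk arrays was 0.78 log2 units for members and 0.31 for all probes. The 2 arrays of a stage differed by a median of 0.80 for members and 0.32 for all probes. Those 2 arrays always lay on different slides, so sample and slide cannot be told apart in this difference. Stage means spanned 1 log2 unit or more for 92 members and 3 or more for 17, and 21.1% of all probes spanned 1 or more. Members were chosen for a high eyestalk level: all 143 exceeded the non-specific level on 6 or more wild eyestalk arrays. Of all probes, 24.3% to 39.0% exceeded it on a wild eyestalk array. The wider spread of members may therefore follow from the choice, which was not tested. Probes of a target tended to vary together: over the 12 arrays the median Pearson correlation was 0.67 for 62 pairs of members of the same target, against 0.02 for 10091 pairs of different targets. These correlations are over arrays that the probes share, and are given as a description. The 3 probes of B-H11-5-SMART (0.97 to 0.99) and the pair of plateB-C2-5SMART-primer (0.98) were the closest, whereas Contig[0360] (-0.12) and E-E3-5-SMART (-0.07) had pairs that did not follow each other.

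Members had their highest stage mean most often at 24 h (34 members, 23.8%, beside 25.8% of all probes). Elongated rod followed with 28 members (19.6%, beside 17.7%) and preablation with 25 (17.5%, beside 13.0%). The lowest stage mean fell most often at 24 h (44 members, 30.8%; all probes 21.0%) and least often at elongated rod (3 members, 2.10%; all probes 13.7%). These counts were made after the values were seen and carry no test. The second 24 h array held the lowest value of the 16 eyestalk arrays for 21 members (all probes 10.0%), more than any other array. It held the highest for 14 (all probes 12.9%). The first vitellogenic array held more, 21 (all probes 8.97%), as did the first elongated rod array, 20 (all probes 5.36%). On the second 24 h array 115 members exceeded the non-specific level, against 125 to 142 on the other wild eyestalk arrays. Of all probes, 24.3% exceeded it there, against 27.0% to 39.0% on those other arrays. The captive preablation array held 18 lowest values (all probes 8.53%) and 14 highest (all probes 10.4%). On it 111 members were above the level, within the 110 to 133 of the captive arrays. Of all probes, 22.9% were above it there, within the 22.4% to 29.9% of the captive arrays. These 2 arrays were picked after the values were seen. Results from the eyestalk arrays are also given without them where they change.

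**Figure D3:**
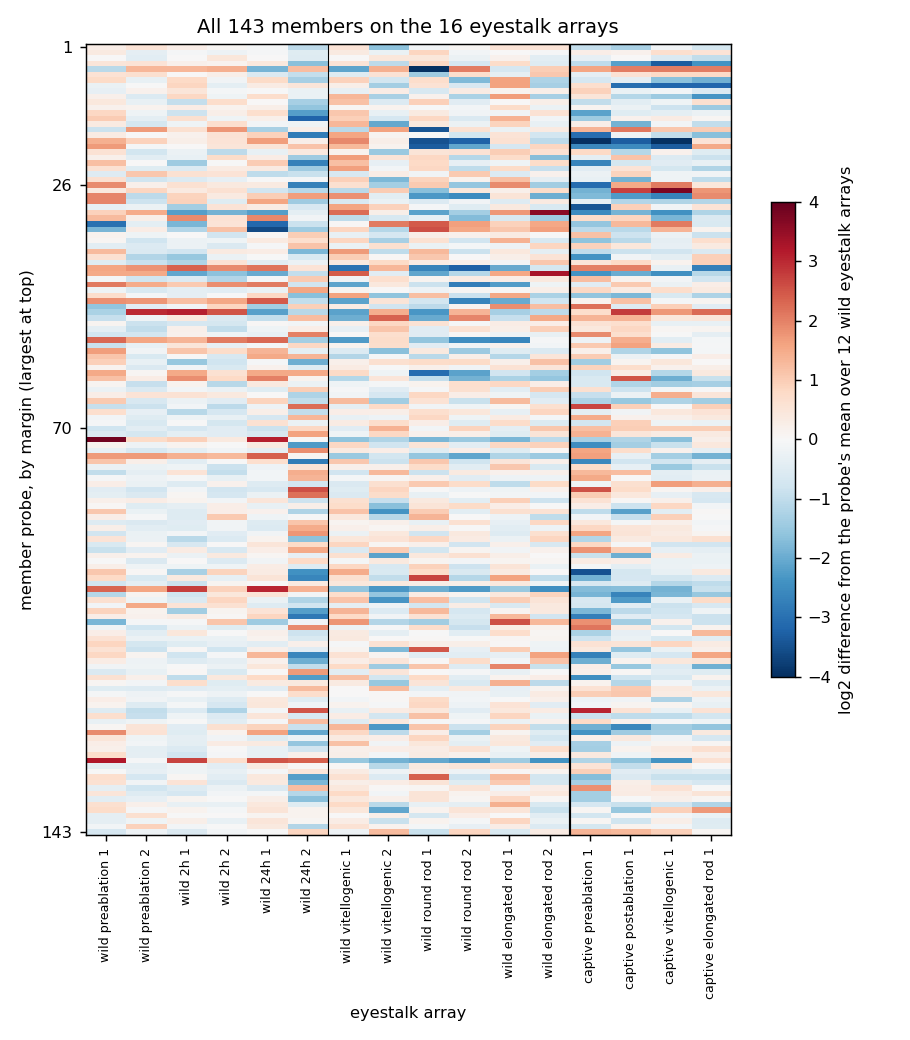
Level of each of the 143 members (rows, largest margin at the top) on the 16 eyestalk arrays (columns; 12 wild by stage, then 4 captive), as the log2 difference from the probe's mean over the 12 wild arrays, red higher and blue lower. A few rows turn from red to blue between the previtellogenic and vitellogenic wild arrays, and the wild 24 h 2 and captive preablation columns differ from their neighbours over many rows.

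The phase comparison asked which members changed in the eyestalk as the ovary of wild females passed from previtellogenic to vitellogenic. The 6 probes that fell are shown here, from 4 targets. The capitals mark the 11 bases that the 2 probes of Contig[0331] share.
Plate-B-D2-5-SMART_113_147: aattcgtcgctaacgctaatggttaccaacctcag
Plate-B-D2-5-SMART_293_327: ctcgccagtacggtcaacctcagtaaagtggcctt
Contig[0331]_33_67: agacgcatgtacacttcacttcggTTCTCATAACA
Contig[0331]_57_91: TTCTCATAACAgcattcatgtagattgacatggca
Contig[0314]_73_107: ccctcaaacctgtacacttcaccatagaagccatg
Contig[0326]_241_275: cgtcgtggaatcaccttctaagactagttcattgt

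All 6 were lower in the vitellogenic phase, and 0 members were higher, at an adjusted p under 0.05 (limma). That is 4.20% of members, beside 0.625% of all probes (14 probes, all lower). The choice of members used the mean over these same wild eyestalk arrays. A probe dim in the vitellogenic phase became a member through its previtellogenic level, and the reverse holds too. The larger shares among members in this comparison may therefore follow from the choice, which was not tested. The median change was 0.20 over all 143 members and 0.03 over all probes, with 93 members above 0 and 50 below. At an unadjusted p under 0.05 there were 28 members (19.6%) and 7.63% of all probes.

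Plate-B-D2-5-SMART_113_147 changed most. Its level was 10.82 and 10.06 at preablation, 11.25 and 9.43 at 2 h, and 11.54 and 9.89 at 24 h. It then read 6.91 and 6.17 at the vitellogenic stage, 6.55 and 6.23 at round rod, and 7.02 and 6.05 at elongated rod. Every vitellogenic array lay below every previtellogenic one, and none of the 6 rose above the non-specific level. The fitted change was -4.01 ± 0.34 (SE, adjusted p = 3.22e-05), a signal at least 5.33-fold lower when set against that level. A second probe of the target, Plate-B-D2-5-SMART_293_327, fell from 9.26 to 13.14 over the previtellogenic arrays to 7.44 to 8.24 over the vitellogenic ones, a change of -3.01 ± 0.60 (adjusted p = 0.0393). The third, Plate-B-D2-5-SMART_371_405, had a change of -0.91 ± 0.45 (adjusted p = 0.659) with overlapping groups, so the 3 probes of this target disagree in size.

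Contig[0331]_57_91 read 8.57 to 10.87 in the previtellogenic phase and 6.41 to 7.75 in the vitellogenic phase, a change of -2.85 ± 0.38 (adjusted p = 0.00178). Again no vitellogenic array exceeded the non-specific level, and the signal was at least 3.57-fold lower. The overlapping probe Contig[0331]_33_67 was brighter, at 11.97 to 13.80, and fell by 3.44 ± 0.70 on the log2 scale (adjusted p = 0.0410). Its groups overlapped through a single vitellogenic array, the second vitellogenic-stage array at 12.77, while the other 5 read 8.19 to 10.72.

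Contig[0314]_73_107 split the phases most widely among bright probes. It read 13.11 and 9.85, 12.59 and 10.61, and 12.41 and 12.29 at the 3 previtellogenic stages, and 7.50 to 8.46 over the 6 later arrays. The change was -3.83 ± 0.57 (adjusted p = 0.00473). The other member probe of this contig, Contig[0314]_116_150, stayed between 9.38 and 10.35 on the vitellogenic arrays and ranged from 8.58 to 11.93 before. It lies within the earlier range and did not pass the test.

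Contig[0326]_241_275 fell by 1.91 ± 0.39 on the log2 scale (adjusted p = 0.0408), from 9.53 to 11.61 down to 7.94 to 9.37, with no overlap. The other probes of this contig, at bases 88 to 121 and 289 to 323, gave changes of -2.10 ± 0.54 (adjusted p = 0.133) and -1.45 ± 0.45 (adjusted p = 0.346). The 3 probes of B-H11-5-SMART came next below the threshold, with changes of -2.58 to -2.76 and adjusted p from 0.0803 to 0.136. For example, B-H11-5-SMART_209_243 read 12.73 to 13.74 on 5 of the 6 previtellogenic arrays and 10.88 on the second 24 h array, against 8.91 to 12.09 later.

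A few members had their higher values in the vitellogenic phase without passing. E-B4-5-SMART_40_74 read 7.53 to 11.21 before and 10.70 to 13.11 after, overlapping ranges with a change of 2.89 ± 0.73 (adjusted p = 0.133). E-A8-5-SMART_19_53 had a change of 2.19 ± 0.74 (adjusted p = 0.400). The E-A8-5-SMART probe that shares 14 bases with E-B4-5-SMART_40_74, printed above, read 9.88 to 12.42 before and 10.44 to 13.33 after.

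The 12 wild eyestalk arrays were hybridised on 3 slides, each holding both phases. The change was negative within each slide for all 6 members that fell, from -4.30 to -2.96 for Plate-B-D2-5-SMART_113_147 and from -4.98 to -1.41 for Contig[0331]_33_67. With slide as a fixed term, Plate-B-D2-5-SMART_293_327, Contig[0326]_241_275 and Contig[0331]_33_67 no longer passed (adjusted p = 0.105, 0.105 and 0.109). The same 3 lost the call in 10 to 12 of the 16 refits that left out 1 array, with adjusted p up to 0.0932, 0.114 and 0.127, whereas the other 3 kept it in all 16. Without the second 24 h array 9 members passed (6.29%; all probes 0.848%), and without that array and the captive preablation array 10 did (6.99%; all probes 0.893%).

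**Figure D4:**
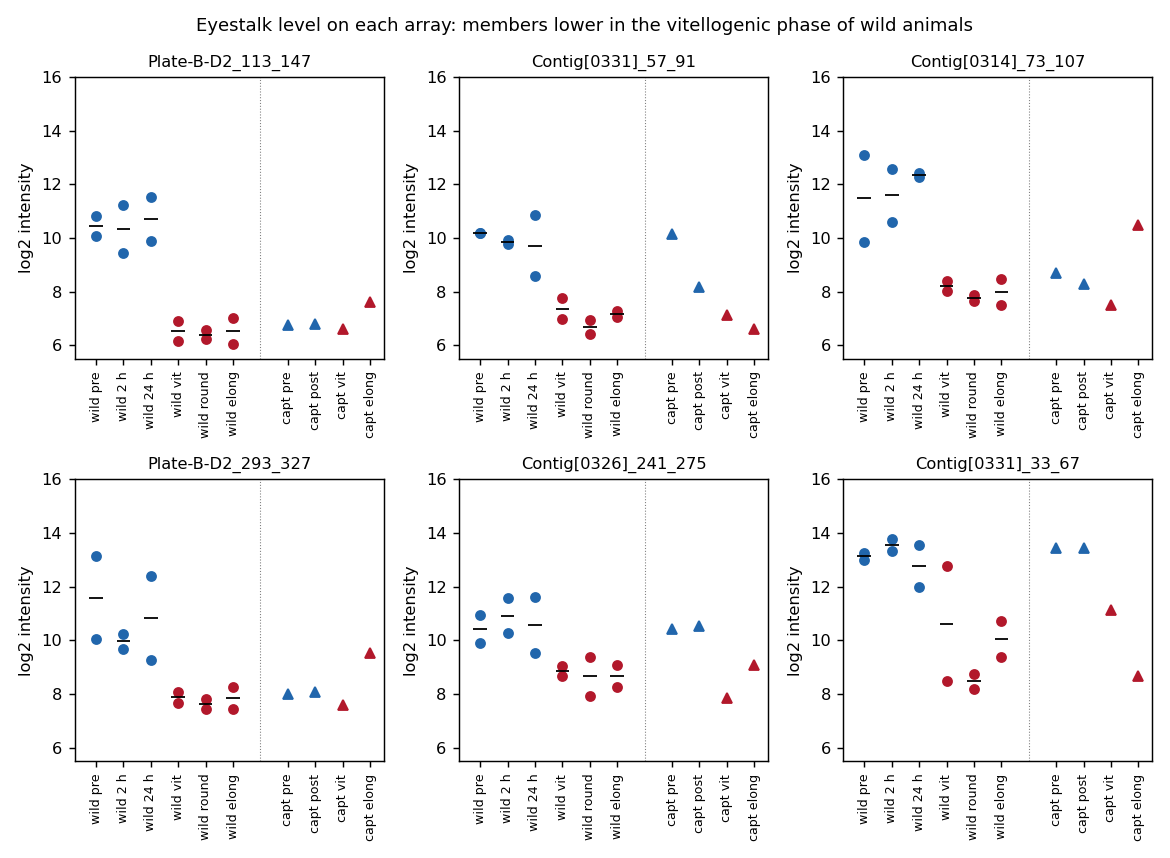
Eyestalk level (log2 normalised intensity) on each array for the 6 members lower in the vitellogenic phase of wild animals; circles are wild arrays with a bar at the stage mean of 2, triangles are captive arrays, blue is previtellogenic and red vitellogenic (the endings -5-SMART are left out of the titles). In wild animals the red circles lie below the blue ones for every probe except Contig[0331]_33_67, where 1 red circle reaches 12.77; for Plate-B-D2_113_147 all 4 captive triangles lie at or below 7.60.

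The cephalothorax had 3 arrays per phase and was looked at after the eyestalk values were seen. Cephalothorax levels here are on the scale that chose the members. They cannot be set against eyestalk levels on the scale of the tests. For 5 of these 6 members all 3 vitellogenic cephalothorax arrays lay below all 3 previtellogenic ones. The exception was Plate-B-D2-5-SMART_293_327. Some of these gaps were small and at low levels. Contig[0326]_241_275 ran from 8.27 to 9.04 before and from 7.91 to 8.11 after. Contig[0331]_57_91 ran from 8.12 to 8.87 before and from 7.50 to 7.60 after. Over all members 14 were lower in this way and 25 higher without overlap, beside 12.8% and 15.6% of all probes. Contig[0331]_33_67 read 11.06, 12.24 and 12.71 at preablation, 2 h and 24 h, and 8.14, 8.64 and 8.62 at the vitellogenic, round rod and elongated rod stages. The 3 probes of B-H11-5-SMART had phase differences of -3.21 to -2.87. The widest gap was that of Contig[0332]_147_181, at 15.11 to 15.64 before and 9.13 to 11.33 after. On the scale that chose the members, the margin of that probe was 1.71. On the scale of the tests it read 13.84 to 15.25 in eyestalk before and 10.70 to 14.55 after. The eyestalk change was -2.23 ± 0.57 (limma, adjusted p = 0.133, above the threshold).

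In captive eyestalk 0 members passed between the phases, as did 0% of all probes (limma), with 15 members (10.5%) and 8.53% of all probes at an unadjusted p under 0.05. The methods' t-test also called 0. The 3 smallest p belonged to probes that fell in wild animals. Contig[0331]_57_91 read 10.14 and 8.18 in the previtellogenic phase and 7.14 and 6.62 in the vitellogenic phase, a difference of -2.28 ± 0.66. Contig[0326]_241_275 read 10.41 and 10.54, then 7.85 and 9.09, a difference of -2.004 ± 0.67. Contig[0331]_33_67 read 13.45 on both previtellogenic arrays, then 11.12 and 8.69, a difference of -3.55 ± 1.21. All 3 had an adjusted p of 0.548.

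Plate-B-D2-5-SMART_113_147 did not share this pattern. In captive animals it read 6.74 and 6.80 in the previtellogenic phase and 6.61 and 7.60 in the vitellogenic phase, and none of the 4 was above the non-specific level. Its phase change was 4.34 ± 0.69 log2 units less negative in captive than in wild eyestalk (adjusted p = 0.0429). It was the single member, and the single probe of the array (0.0446%), for which this difference passed. The wild previtellogenic values that made this probe a member also enter the difference. The choice itself therefore pushes the difference in the direction seen. On the captive eyestalk arrays Plate-B-D2-5-SMART_293_327 read 7.60 to 9.51 and Plate-B-D2-5-SMART_371_405 read 10.87 to 12.11, so the target's probes differ in level there. The call was lost in 12 of 16 refits leaving out 1 array, with the difference between 3.86 and 4.86 and an adjusted p up to 0.598 without the captive elongated rod array. It held without the wild first 24 h, second 2 h, second 24 h or captive vitellogenic array. Without both the second wild 24 h and the captive preablation array it did not pass. Contig[0314]_73_107 had a difference of 4.34 ± 1.14 with an adjusted p of 0.649. It read 8.69, 8.28 and 7.50 on the first 3 captive arrays and 10.49 at elongated rod.

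The origin comparisons set captive against wild eyestalk within a phase. They reuse the wild eyestalk arrays that chose the members for being high, so the choice itself pushes these differences toward lower captive values. All 4 captive arrays shared a slide that held no wild array, so origin and that slide cannot be told apart. In the previtellogenic phase 2 members passed (1.40%), beside 0.714% of all probes. Plate-B-D2-5-SMART_113_147 was lower in captive animals by the values above, with a difference of -3.73 ± 0.48 (adjusted p = 0.00513) and at least 3.72-fold, and it kept the call in all 16 refits leaving out 1 array. The other probes of this target did not pass and disagree with each other. Plate-B-D2-5-SMART_371_405 read 12.11 and 10.87 in captive animals, within the wild range of 10.47 to 12.61. Plate-B-D2-5-SMART_293_327 read 7.996 and 8.079 in captive animals, below the wild range of 9.26 to 13.14. plateA-F10-5SMART-primer_489_523 was higher, at 9.98 and 10.09 against 8.79 to 9.71 in wild animals, with a difference of 0.99 ± 0.21 (adjusted p = 0.0489). Scaling each array to its median in place of quantile normalisation left a difference of 0.10 for this probe (adjusted p = 0.814), and both members called under that scaling were lower in captive animals. A-A4-5-SMART_65_99, at 10.43 and 10.24 against 8.93 to 9.71, missed the threshold (1.05 ± 0.24, adjusted p = 0.0660).

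The number called in the previtellogenic origin comparison rested on 1 array. Without the second wild 24 h array 27 members passed (18.9%), 20 of them higher in captive animals, beside 8.71% of all probes, and leaving out any of the other 15 eyestalk arrays in turn gave 1 to 3. Leaving out the captive preablation array as well leaves 1 captive array in this phase, so that refit is not read as a result. What lies behind the 27 calls was not tested. Among probes that did not pass with all arrays, plateB-B4-5SMART-primer_585_619 had the largest difference, -4.72 ± 1.42 (adjusted p = 0.141). It read 11.99 to 13.41 on the 6 wild previtellogenic arrays and 7.29 and 8.43 on the captive ones, where it was not above the non-specific level. plateC-A1-5SMART-primer_45_79 read 7.92 and 8.69 in captive and 9.41 to 11.11 in wild animals, a difference of -2.09 ± 0.57 (adjusted p = 0.116).

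In the vitellogenic phase 0 members passed between origins, as did 0% of all probes (limma), with 17 members (11.9%) and 8.88% of all probes at an unadjusted p under 0.05. The methods' t-test called 0 as well. The 3 smallest p all belonged to probes lower in captive animals. plateC-A1-5SMART-primer_177_211 read 11.32 and 11.45 in captive eyestalk and 12.27 to 12.89 in wild eyestalk, a difference of -1.33 ± 0.28. plateB-H1-5SMART-primer_307_341, the fourth largest margin, read 10.20 and 11.14 against 12.47 to 14.36, a difference of -2.83 ± 0.63. Its second probe at bases 357 to 391 read 9.27 and 9.26 against 11.07 to 14.06, a difference of -3.02 ± 0.85. plateB-G8-5SMART-primer_289_323 read 9.01 and 9.06 against 10.22 to 11.23, a difference of -1.63 ± 0.38. The adjusted p were 0.263 for 3 of these 4 probes and 0.377 for the second plateB-H1 probe. Of the members, 93 lay below 0 in this comparison, with a median of -0.19 beside -0.02 for all probes.

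The probes of plateB-C2-5SMART-primer, printed next, were the members with the smallest p after ablation.
plateB-C2-5SMART-primer_223_257: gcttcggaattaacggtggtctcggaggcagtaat
plateB-C2-5SMART-primer_301_335: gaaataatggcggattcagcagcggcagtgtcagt

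At preablation plateB-C2-5SMART-primer_223_257 read 10.51 and 11.04, and at 2 h it read 7.38 and 7.69. The 24 h arrays read 7.38 and 9.18. It returned to 11.81 and 9.80 at the vitellogenic stage, was low again at round rod (7.43 and 8.21) and highest at elongated rod (11.30 and 13.17). The 4 captive arrays stayed low, at 7.05 to 8.38, the preablation array included. The probe at bases 301 to 335 followed the same course, with 10.78 on both preablation arrays, 7.19 and 7.62 at 2 h, and 6.79 to 8.14 in captive animals. In a fit of the 12 wild arrays normalised on their own, the 2 h difference was -3.40 ± 0.91 for the first and -3.54 ± 0.97 for the second probe (adjusted p = 0.999 for both).

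In all, 0 members passed at 2 h against preablation and 0 at 24 h, as did 0% of all probes at either time (limma, 2 arrays per stage). At an unadjusted p under 0.05 there were 2 members at 2 h, the plateB-C2 pair (1.4%; all probes 0.402%), and 10 at 24 h (6.99%; all probes 3.08%). Across the 6 stages 0 members and 0% of all probes passed (unadjusted 14 members, 9.79%, and 1.7% of all probes; smallest adjusted p = 0.668). A refit without either wild 24 h array leaves 1 array at that stage, so its calls are not read as results. plateB-B4-5SMART-primer_585_619 showed the lowest round rod values beside its high neighbours, at 8.26 and 8.50 against 10.69 to 13.66 on the other 10 wild arrays. Its 4 captive arrays read 7.29, 8.43, 6.70 and, at elongated rod, 12.30. The other probes of that clone read 7.65 and 7.43, and 8.89 and 10.13, at round rod, the lowest stage mean for each.

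**Figure D5:**
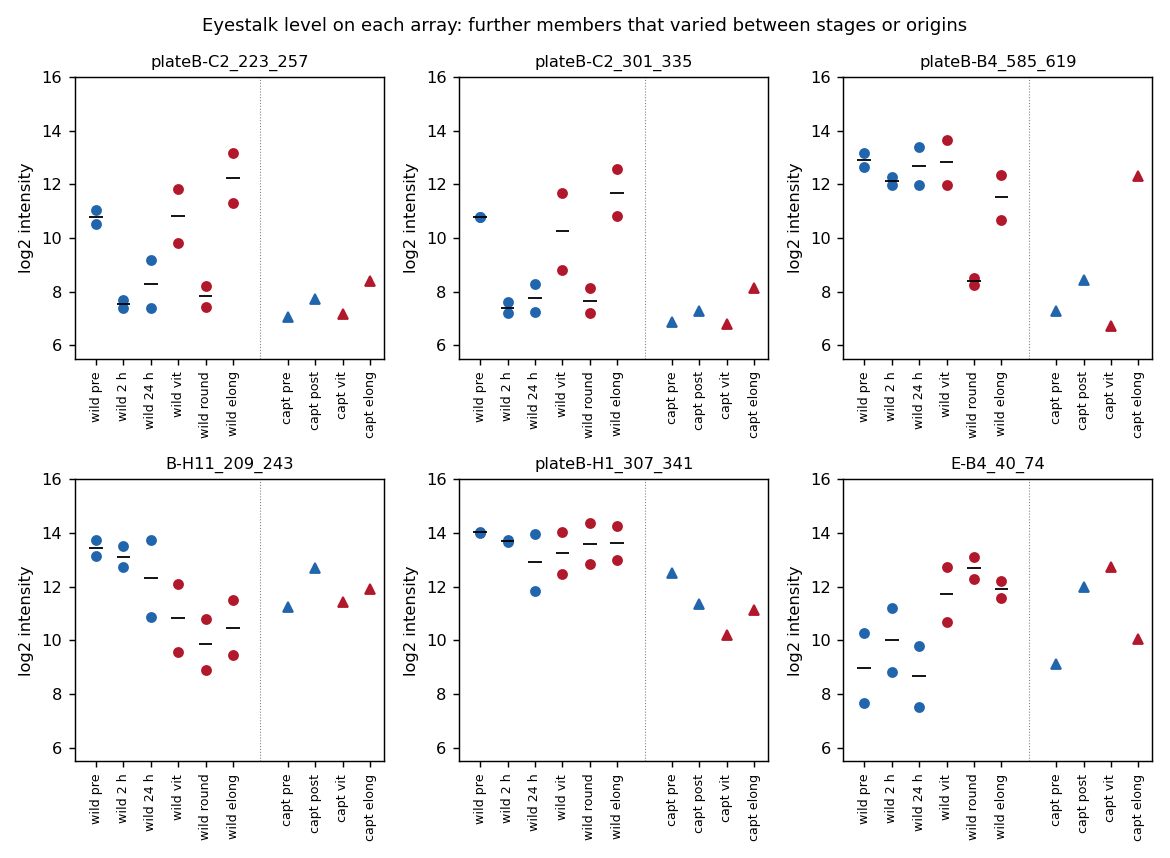
Eyestalk level (log2 normalised intensity) on each array for 6 further members chosen after their values were seen; circles are wild arrays with a bar at the stage mean of 2, triangles are captive arrays, blue is previtellogenic and red vitellogenic (clone endings are left out of the titles). The plateB-C2 pair is near 11 at preablation and below 8 at 2 h, plateB-B4_585_619 is low at round rod, and the captive triangles of plateB-H1_307_341 lie below most wild circles.

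In ovary, where members are low or moderate by choice, captive and wild previtellogenic arrays differed for 40 members (28.0%), beside 22.5% of all probes. Of these 26 were higher in captive ovary (18.2%; all probes 13.5%) and 14 lower (9.79%; all probes 9.02%). The choice favours higher captive values here, since members were picked for low wild ovary means, and the captive ovary arrays had a slide of their own. Scaling each array to its median gave 20 members, 10 in each direction. No share of all probes under that scaling is given here, so this count is not read as a result about the members. Leaving out the captive preablation ovary array leaves 1 captive array in this phase, so that refit is not read as a result. D-D5-5-SMART_309_343 differed most, at 14.03 and 11.40 in captive against 8.03 to 9.82 in wild previtellogenic ovary, a difference of 3.86 ± 0.60 (adjusted p = 6.18e-04). E-F3-5-SMART_25_59 had the smallest p, at 8.04 and 7.82 against 6.41 to 6.79 (1.25 ± 0.13, adjusted p = 5.00e-05), though only 1 of these arrays was above the non-specific level. plateC-A1-5SMART-primer_177_211 read 13.56 and 13.22 against 11.88 to 12.21, a difference of 1.33 ± 0.18 (adjusted p = 2.23e-04) that fell to 0.29 under median scaling. The other probes of this target, at bases 45 to 79 and 138 to 171, had differences of 0.10 ± 0.42 and -0.29 ± 0.51 in ovary, with adjusted p of 0.891 and 0.705.

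Lists of named probes were read beside the members. A list of eye and neurosecretory genes, such as opsin, arrestin and the hyperglycaemic hormone family, matched 110 probes, of which 28 passed the eyestalk threshold. In captive animals 32 of the 110 (29.1%) were higher in eyestalk than in ovary and 1 lower, where 21.7% of all probes were higher. Of the muscle probes 9 of 13 (69.2%) were higher and 0 lower, and of the digestive gland and haemocyte probes 9 of 36 (25%) were higher and 0 lower. Of the oocyte probes 13 of 17 were lower. The part of muscle in the captive tissue difference was not tested. The probes with the highest margins were for the hyperglycaemic hormone homologue PmSGP-II (2.51) and hyperglycaemic hormone 2 (2.34). For muscle, oocyte, and digestive gland and haemocyte genes, 0 of 13, 0 of 17 and 0 of 36 probes passed the eyestalk threshold. The mean muscle level over the wild eyestalk arrays ran from 8.74 to 11.46 in the previtellogenic phase and from 8.57 to 10.32 in the vitellogenic phase, and its part in the phase results was not tested. The oocyte list stayed at 6.97 to 7.54 on all 16 eyestalk arrays. Of the 4 lists, 0 probes were called between wild phases.

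Over the 16 eyestalk arrays, the named probe whose level moved most like the median member was one for ovarian peritrophin 1 (r = 0.84), a protein of the egg's jelly layer. Thrombospondin (0.83), the ecdysone-responsive nuclear receptor E75 (0.80), ovarian peritrophin 2 (0.70) and pigment-dispersing hormone 2 (0.64) followed, out of 255 named probes. These values are descriptions over 16 arrays that share depth and normalisation, and the median of members itself moved little, between 10.06 and 10.70. Peritrophin 1 and thrombospondin had margins of -4.74 and -4.81, so these probes read lower in eyestalk than in another wild tissue. The peritrophins and thrombospondin belong to the oocyte list, whose mean was low on these arrays, at 6.97 to 7.54. Their correlations may therefore rest on signal near the background, which was not tested.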

How the data were processed

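The 38 arrays are 1-colour Cy5 hybridisations of amplified RNA, per the labels' protocols. Per the file headers, the deposited scanner files give the mean and median foreground intensity of each spot, with no normalisation; 85082 of 85082 deposited table values equalled scanner values within 0.01. Members were chosen on log2(mean intensity + 50), quantile-normalised over the 30 wild arrays. The members and lists were chosen with earlier results of these data known.

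For tests, intensities were corrected with normexp (offset 50), taken to log2, quantile-normalised within each fit's own set of arrays and tested with limma 3.58.1 in R 4.3.3 across all 2240 probes, with Benjamini-Hochberg adjustment at 0.05. The script was tested on simulated data. Eyestalk origin and phase were fitted over 16 arrays, stages over the 12 wild arrays. A fold written "at least" sets a signal that was not above the non-specific level in any array of a group against that level. Probes named were the 10 largest margins, those next to the threshold, those called or with the 3 smallest p per comparison, targets with 3 member probes, and the 5 most like named probes. Others were chosen after their values were seen. Nothing says how the arrays of a stage were kept separate, so p-values measure the spread between arrays, which may be technical. Correlations of 2 arrays of a stage ran from 0.81 to 0.98. The number of arrays limits the precision.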

Additional observations from a re-analysis of the deposited data

Results flagged for a closer look

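In 36 groups of 6 arrays, 4 values stood far from the others, where chance gives about 1 in 20 groups. On the second wild 24 h eyestalk array, plateA-F10-5SMART-primer_489_523 read 9.71 against 8.79 to 9.02 on the other previtellogenic arrays. On that array plateB-H1-5SMART-primer_307_341 read 11.86 against 13.66 to 14.06, and D-D5-5-SMART_309_343 read 12.37 against 8.62 to 9.77. On the second elongated rod array plateC-A1-5SMART-primer_177_211 read 12.27 against 12.68 to 12.89 on the other vitellogenic arrays. The phase change of Plate-B-D2-5-SMART_113_147 differed between captive and wild eyestalk by 4.34 (limma, adjusted p = 0.0429). The wild values in this difference also helped to choose the probe.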

How the results depend on the processing

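Of the results recomputed under settings other than leaving out 1 array, 55 comparison counts stayed within 1.5 times and 20 moved; for single probes 369 kept their direction and side of the threshold, 54 lost the call, 4 gained it and 2 changed sign. Members numbered 90 with median scaling and 44 at a threshold of 2. The 6 wild phase calls became 3 without normexp, 12 without dim probes, 3 by the methods' t-test and 10 without the second wild 24 h and captive preablation arrays. The single call for the captive and wild phase difference became 0 without normexp, with median scaling, over matched stages and without those 2 arrays. The 2 previtellogenic origin calls became 1 without dim probes, 1 with slide as a random block, 1 over matched stages and 0 by the methods' t-test. The 40 ovary calls became 20 with median scaling, 21 without dim probes and 10 by the methods' t-test. With the replicate number as a block, the counts were 22 and 10 for origin in the previtellogenic and vitellogenic phases, 1 across the stages and 7 for wild phase; the replicate block moved no other count by over 1.5 times. The numbers did not pair the samples: 12 of 15 pairs of wild eyestalk stages, not all, correlated above 0.1. Median scaling reversed A-A4-5-SMART_65_99 in previtellogenic eyestalk (1.05 to -0.00305) and Contig[0282]_180_214 in previtellogenic ovary (1.11 to -0.17), and the cause was not tested. Leaving out 1 array gave 3 to 9 calls for wild phase, 0 to 1 for the phase difference, 1 to 27 for previtellogenic origin, 0 to 3 at 24 h, 0 to 1 across stages, 87 to 104 for captive tissue, 17 to 48 for ovary and 133 to 151 members; captive phase, vitellogenic origin and 2 h stayed at 0. No share of all probes is given beside the counts in this section, so they are not read as results about the members. Signal over background limits the dim probes, and 2 arrays per stage or captive phase limit the stage and origin tests.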

Other observations

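D-D5-5-SMART_309_343, the member with the largest captive ovary difference, read 9.51 and 11.52 on the captive vitellogenic and elongated rod ovary arrays. Its eyestalk difference at 24 h against preablation was 2.06 with both 24 h arrays (limma, not passing). The difference was 0.72 without the second 24 h array and 3.38 without the first. Each of these refits leaves 1 array at 24 h, so neither is read as a result.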
